A study of Mus musculus with 30 samples.

Results

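To describe how the machinery that keeps DNA copying accurate differed between 2 tumor models, the transcripts of 8 mouse genes, Msh3, Msh6, Mlh3, Pms1, Pms2, Exo1, Mgmt and Pole, were followed through every library of the series. The genes were listed by name, 8 of the 53431 gene identifiers counted, and the list was drawn up with earlier results of these data known. CT-26 and Colon 26 are mouse colon carcinoma cell lines derived from the BALB/c strain. RNA was sequenced from 3 cultures of each line (CT-26 culture, Colon 26 culture) and from 4 tumors of each line at each of 3 nominal sizes, which gave 30 libraries in 8 groups. The tumors grew in the flank of female BALB/c mice, and those of 100, 400 and 800 mm3 measured 103.33 to 145.86, 400.47 to 464.68 and 810.36 to 938.57 mm3 in CT-26 and 102.9 to 124.88, 401.52 to 466.73 and 807.93 to 963.18 mm3 in Colon 26. No sample is labelled with an antibody, although the labels describe, for the study as a whole, animals dosed with antibodies. The age of the mice and the time of harvest of these tumors are not given in the labels. The labels give each tumor library a volume of its own, but do not say whether the 3 libraries of a line in culture came from separate cultures, so the spread between those may be technical. Each model is represented by a single cell line.

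Mismatch repair removes bases that the replicative polymerases paired wrongly and small loops left where a repeat slipped. MutS-type proteins recognise the error: Msh6 is the subunit for single mispairs and the shortest loops, and Msh3 for longer loops. MutL-type proteins then act, with Pms2 as the main nicking subunit, Mlh3 as the one best known from meiotic recombination and Pms1 as one of less clear function, and Exo1 is the exonuclease that removes the strand with the error. Pole is the catalytic subunit of DNA polymerase epsilon, which copies the leading strand and proofreads its own errors. Mgmt works alone and takes alkyl groups directly off guanine. In the colon, loss of mismatch repair is known for unstable microsatellites and many frameshift mutations, and the RNA level of these genes says nothing by itself about the repair a cell can carry out.

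Levels are given as CPM (counts scaled to a common library size) with TMM factors over all 30 libraries. Levels of different members are compared only in FPKM, which also divides by transcript length. Gene lists are summed in CPM, where genes with more counts weigh more. Differences between groups are log2 fold changes with their standard error (SE) from edgeR's quasi-likelihood test. A gene passed at an adjusted p (Benjamini-Hochberg over all genes tested) of at most 0.1 and was called differentially expressed (DE) when its log2 fold change was also at least 1 in size. Library totals ran from 21384730 to 39722586 counts (median 28527424). The Colon 26 cultures were deeper (36042940 to 39722586) than the CT-26 cultures (21384730 to 27856380), and the cultures of the 2 lines carry separate series of library numbers, so that in culture the series and the model cannot be told apart. The library numbers of the tumors lie apart from those of both sets of cultures, and each tumor group has its own stretch of consecutive numbers. The step from culture to tumor therefore cannot be told apart from the series either. The same holds for the model difference at each tumor size and for the steps of growth, which cannot be told apart from these stretches of numbers. Of 9 colon epithelial markers, Epcam, a defining one, had no count in either set of cultures, and Cdh1 had at most 2 counts, Krt19 at most 5 and Vil1 at most 4 counts in any culture. Krt20, a keratin of the gut lining, was counted in both (24.2 to 25.7 CPM in CT-26 and 5.22 to 5.68 CPM in Colon 26), as was Lgals4 (2.53 to 4.24 and 3.06 to 3.73 CPM), and Krt8 was at most 0.52 CPM. Krt18, a keratin of simple epithelia, lay at 15.7 to 16.1 CPM in CT-26 and at most 0.073 CPM in Colon 26 cultures. Cdx2, an intestinal transcription factor, showed the opposite order, with 0.07 to 0.25 CPM in CT-26 and 5.70 to 6.20 CPM in Colon 26. Tumor libraries also held RNA of other cells. The summed level of 9 leukocyte markers was 3.95 to 67.6 CPM in cultures and 242 to 1073 CPM in tumors, and that of 4 skeletal muscle markers was at most 0.371 CPM in cultures and reached 2156 CPM in one Colon 26 tumor of 400 mm3. In such bulk tissue fewer cells of a type and less RNA per cell cannot be told apart.

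The upstream sequences of 3 members are shown, Mlh3, Msh6 and Mgmt. Mlh3 and Msh6 separated the models in culture without overlap, as did all 7 members tested there and 79.7% of all genes tested. Mgmt was counted in tumors and almost not in cultures. For Exo1 and Pole the RefSeq promoters used here held no window. Each line gives the 250 bases before the RefSeq start (GRCm38.p6), 5′ to 3′ on the strand of the gene, with matches to the motifs named below in capitals. The Mlh3 window is chr12:85270600-85270849 on the minus strand, the Msh6 window chr17:87974800-87975049 on the plus strand and the Mgmt window chr7:136894336-136894585 on the plus strand.
Mlh3: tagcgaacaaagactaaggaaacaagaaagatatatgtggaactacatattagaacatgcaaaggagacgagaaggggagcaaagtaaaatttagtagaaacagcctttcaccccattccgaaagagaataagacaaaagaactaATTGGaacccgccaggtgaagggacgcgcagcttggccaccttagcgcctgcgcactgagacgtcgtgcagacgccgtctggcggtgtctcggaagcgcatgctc
Msh6: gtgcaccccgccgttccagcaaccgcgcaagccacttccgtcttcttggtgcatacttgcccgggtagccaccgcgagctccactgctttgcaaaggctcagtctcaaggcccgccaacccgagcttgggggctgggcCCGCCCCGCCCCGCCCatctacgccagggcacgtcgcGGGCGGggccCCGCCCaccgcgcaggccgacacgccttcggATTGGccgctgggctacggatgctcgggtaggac
Mgmt: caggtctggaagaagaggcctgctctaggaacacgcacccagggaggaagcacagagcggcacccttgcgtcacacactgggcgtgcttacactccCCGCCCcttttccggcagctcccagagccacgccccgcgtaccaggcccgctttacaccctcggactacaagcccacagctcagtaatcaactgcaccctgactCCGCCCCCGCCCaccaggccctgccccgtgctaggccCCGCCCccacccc

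The motifs were searched on both strands of 300-base windows that run from 250 bases before to 50 bases after the start. One was the Sp1-like run GGGCGG and another the CCAAT box, and TTTGAA stood for the cell cycle homology region. Of 3 E2F-like runs, the first was TTTCGCG, the next, which differs from it at a single base, was TTTGGCG, and the last was TTCCCGC. The windows of 5 members are described, Msh6, Mlh3, Pms1, Pms2 and Mgmt, and that of Msh3 is not reported here. The Msh6 window held GGGCGG 5 times, 1 CCAAT at −34 and TTCCCGC at position 17 after the start. The Mgmt window held GGGCGG 4 times (at −154, −50, −44 and −13) and none of the other motifs, and the Mlh3 window held 1 CCAAT at −105 and none of the other motifs. Of 32851 promoters of the same length, 35.7% held GGGCGG, 37.4% held the CCAAT box and 17.9% TTTGAA. Any of the E2F-like runs was in 6.72%, the first of them in 0.849%, the next in 1.56% and the last in 4.6%. Of the 5 windows, those of Msh6 and Pms1 (TTCCCGC at −128) held an E2F-like run, and none held TTTGAA. The number of CG pairs was 37 for Msh6, 25 for Pms1, 22 for Mlh3, 20 for Mgmt and 19 for Pms2, against a median of 7 over all promoters. A second RefSeq window of Mgmt, chr7:136912848-136913147, had only 3 CG pairs. These matches describe the letters of the windows and show no binding.

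Across the 8 groups the members showed different patterns. Mlh3, Msh3 and Pms1 stood lower in Colon 26 in culture and in tumors. Exo1 and Pole stood higher in Colon 26 cultures and, in tumors, lower at 2 of the 3 sizes (Exo1) or at all 3 (Pole). Msh6 stood higher in Colon 26 throughout. Pms2 differed little, and Mgmt was counted almost only in tumors. Of the 8 members, 7 had enough counts to be tested in culture and all 8 in tumors.

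**Figure D1:**
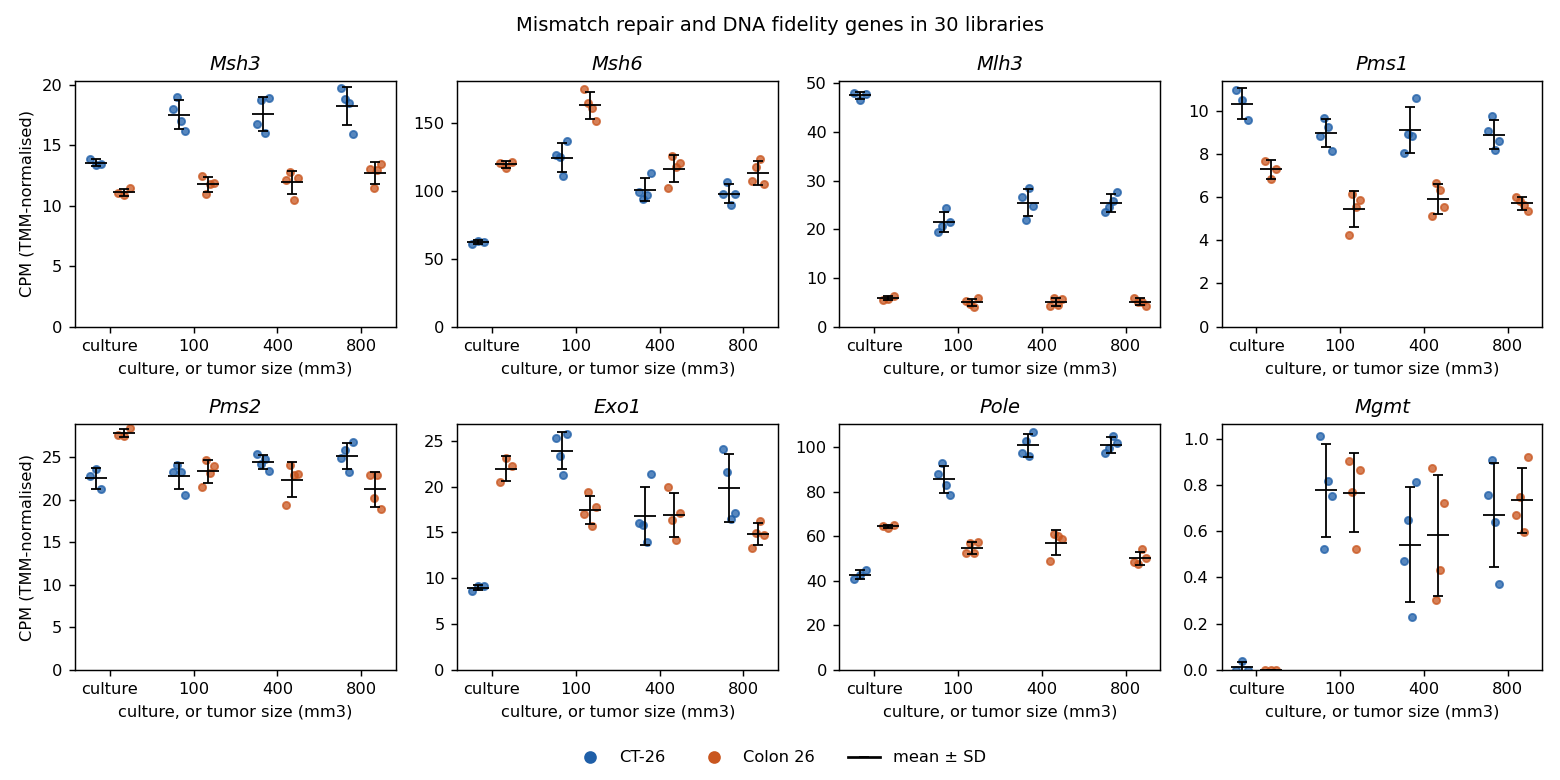
Level of each gene in every library, in TMM-normalised CPM on an axis from 0, by culture and tumor size in mm3. Each point is a library, blue for CT-26 and orange for Colon 26, with the group mean ± SD (n = 3 cultures or 4 tumors). Mlh3 in CT-26 cultures (46.6 to 48.0) lies above every other group, the order of the models for Pole turns between culture and tumors, and Mgmt lies near 0 in all cultures.

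The order of the group means, by library ranges in CPM, differed by gene. For Mlh3 all 4 Colon 26 groups overlapped their neighbours at the bottom, the 3 CT-26 tumor groups overlapped above a gap, and the CT-26 cultures stood alone at the top. For Msh3 and Pms1 the Colon 26 groups were again the lowest, with the Colon 26 cultures apart from the Colon 26 tumors for Pms1 and the CT-26 cultures overlapping the largest Colon 26 tumors for Msh3. For Pole the order was CT-26 cultures, the 3 Colon 26 tumor groups (which overlapped), Colon 26 cultures, CT-26 tumors of 100 mm3 and then the larger CT-26 tumors (which overlapped). For Msh6 the CT-26 cultures were lowest and the Colon 26 tumors of 100 mm3 highest, both without overlap with the next group, and the 6 groups between them overlapped in a chain. For Exo1 the CT-26 cultures stood alone at the bottom and the other 7 groups overlapped in a chain.

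In culture, all 7 members tested passed, 4 higher and 3 lower in Colon 26 (42.2% and 40.4% of all genes tested), and 2 were DE. The background was high, since 82.6% of the 14334 genes tested passed in this comparison, 22.9% were DE and the groups did not overlap for 79.7%, as for all 7 members. The members' share that passed is therefore close to that of all genes, and their sizes are of more use. The log2 fold changes of the members ran from −2.97 to 1.35. Their median was 0.36, against 0.01 over all genes tested. At 100 mm3, 6 of 8 members passed (56.5% of all genes tested), at 400 mm3 5 of 8 (52.2%) and at 800 mm3 7 of 8 (59.4%), with 1, 1 and 2 DE (13.2%, 14.3% and 14.1% of all genes tested). The groups did not overlap for 6, 4 and 6 members (47.9%, 43.5% and 48.3% of all genes tested). The members' medians were −0.52, −0.34 and −0.48 in the tumors of the 3 sizes, against medians between −0.01 and 0.03 over all genes. Scaling holds the median of all genes near 0, and the members were chosen with earlier results known. These medians therefore describe the members and test no shift of the set. Over all 24 tumors with size in the model, 6 of 8 passed, against 72.0% of all genes tested, and 7 of 8 passed in every fit that left out a library.

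**Figure D2:**
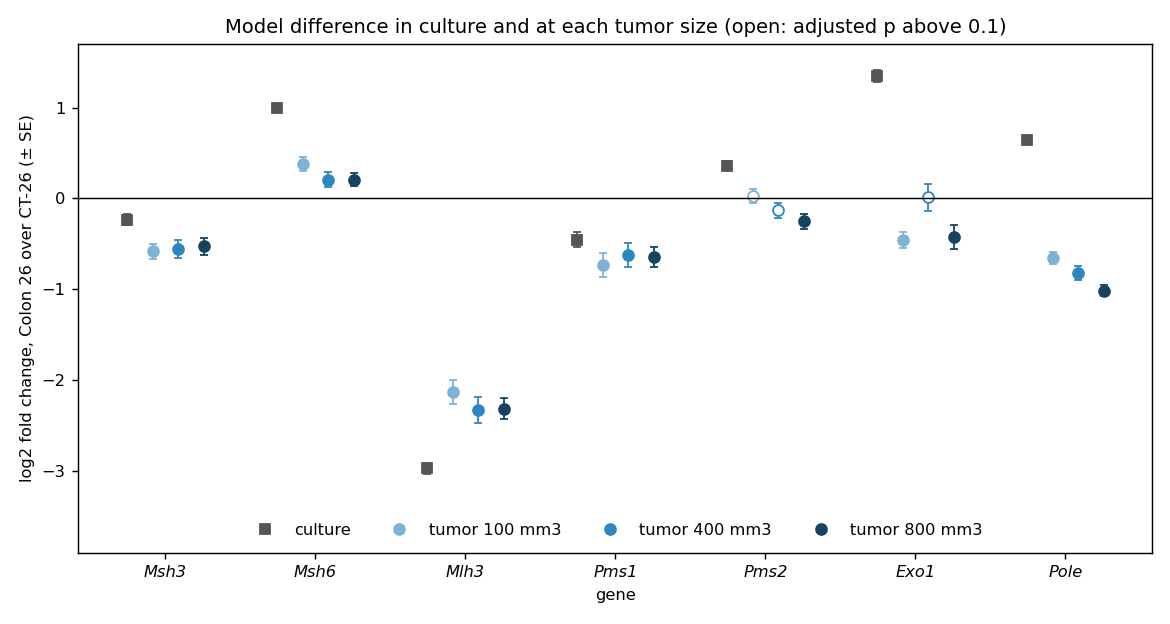
Log2 fold change of Colon 26 over CT-26 (± SE) for the 7 members tested in culture, as squares for the 6 cultures and circles for the 8 tumors of each size. Open symbols mark an adjusted p above 0.1. Mlh3 is far below 0 in all 4 comparisons, and Exo1 and Pole are above 0 in culture only, apart from Exo1 at 400 mm3, where the value is 0.01.

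Among the error-recognising subunits, Msh6 was the member with the highest level per length in both cultures, with 14.5 FPKM in CT-26 and 29.1 FPKM in Colon 26. The gene (ENSMUSG00000005370.3) lies on GRCm38 chr17:87975062-87990892, plus strand. In CPM it lay at 60.8, 62.6 and 63.4 in the CT-26 cultures and at 116.9, 120.6 and 121.0 in the Colon 26 cultures. All Colon 26 cultures lay above all CT-26 cultures, with a log2 fold change of 0.99 (SE 0.03, adjusted p = 5.31e-14, edgeR), just under the minimum of 1 for a DE call. At 100 mm3 the CT-26 tumors had 110.7, 124.8, 126.6 and 136.5 CPM and the Colon 26 tumors 151.3, 161.4, 165.0 and 175.3 CPM. The groups again did not overlap, but the difference was smaller, 0.38 (SE 0.08, adjusted p = 0.00282). At 400 and 800 mm3 the groups overlapped, with 93.9 to 113.2 CPM in CT-26 and 102.1 to 125.4 in Colon 26 at 400 mm3, and 89.4 to 106.6 and 104.8 to 123.8 CPM at 800 mm3. The difference was 0.21 at both sizes (SE 0.08, adjusted p = 0.0701, and SE 0.07, adjusted p = 0.0362). At 400 mm3 it passed in only 2 of the 8 fits that left out a library (adjusted p from 0.0162 to 0.167), and at 800 mm3 it was lost when the CT-26 tumor of replicate 3 was left out (adjusted p = 0.109).

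Msh6 was also the only member that passed by edgeR in a step of tumor growth. In Colon 26 it fell by 0.54 on the log2 scale from 100 to 800 mm3 (SE 0.07, adjusted p = 0.00723), where 6.67% of all genes tested passed, and the 4 tumors of 800 mm3 all lay under the 4 of 100 mm3. The other steps did not pass by edgeR, with values of −0.49 for Colon 26 from 100 to 400 mm3 (adjusted p = 0.11), −0.30 for CT-26 from 100 to 400 mm3 (adjusted p = 0.121) and −0.36 for CT-26 from 100 to 800 mm3 (adjusted p = 0.417). Few genes of any kind passed in these steps: 0 of 15104 in CT-26 from 100 to 400 mm3 (0.0%), 0 of 15298 in CT-26 from 100 to 800 mm3 (0.0%) and 3 of 15241 in Colon 26 from 100 to 400 mm3 (0.0197%). At an unadjusted p under 0.05, edgeR counted 3 members in the first (Msh6, Exo1 and Pole), 3 in the second (Msh6, Mlh3 and Pole) and 1 in the third (Msh6), among 3356, 1610 and 1929 genes (22.2%, 10.5% and 12.7% of those tested). DESeq2 called 3 members in the first (Msh6, Exo1 and Pole), and Msh6 alone of the members in the second and in the third. Over all genes it called 1977, 177 and 507 in these steps. In the step from 100 to 800 mm3 in Colon 26, DESeq2 also called Msh6 alone of the members, among 1601 genes. There edgeR counted 3 members at an unadjusted p under 0.05 (Msh6, Exo1 and Pole), among 3187 genes (20.7% of those tested).

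Msh3 (ENSMUSG00000014850.15, chr13:92211872-92355003, minus strand) was lower in Colon 26 in all 4 comparisons. In culture the CT-26 libraries had 13.4, 13.5 and 13.9 CPM and the Colon 26 libraries 10.9, 11.1 and 11.5 CPM, a difference of −0.23 (SE 0.06, adjusted p = 0.00318). In tumors the separation was wider. At 100 mm3 the CT-26 tumors had 16.2 to 19.0 CPM and the Colon 26 tumors 10.97 to 12.5, and the log2 fold change was −0.58 (SE 0.08, adjusted p = 0.000382). At 400 mm3 it was −0.56 (SE 0.10, adjusted p = 0.00202), and at 800 mm3 −0.53 (SE 0.09, adjusted p = 0.000848). Every one of the 12 CT-26 tumors lay above every one of the 12 Colon 26 tumors, as was also the case for Mlh3, Pms1 and Pole and for 22.3% of all genes tested over the 24 tumors, in either direction.

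Because Msh6 and Msh3 belong to alternative error-recognising complexes, their ratio within a library was also computed, in FPKM. It was 4.25 ± 0.18 in CT-26 cultures and 9.95 ± 0.14 in Colon 26 cultures (SD, n = 3). At 100 mm3 it was 6.61 ± 0.83 in CT-26 and 12.8 ± 0.92 in Colon 26, at 400 mm3 5.28 ± 0.51 and 9.03 ± 1.04, and at 800 mm3 4.96 ± 0.59 and 8.25 ± 0.996 (SD, n = 4). At every size and in culture the lowest Colon 26 library lay above the highest CT-26 library. The ratio was at its highest at 100 mm3 in both models.

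**Figure D3:**
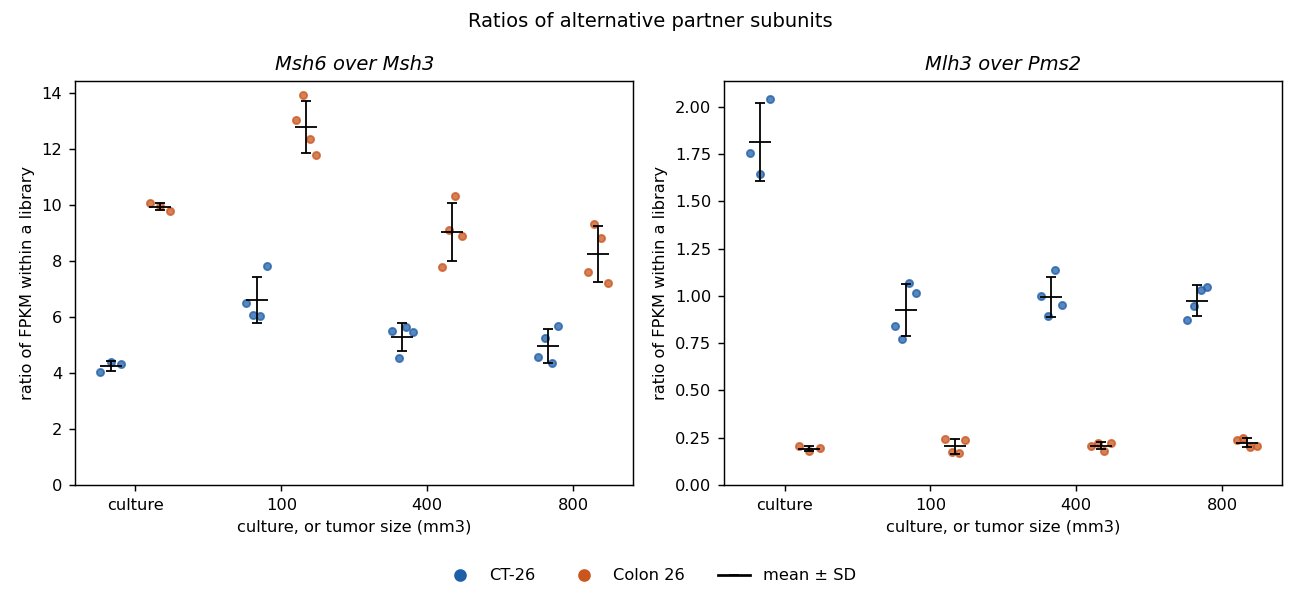
Ratio of Msh6 to Msh3 (left) and of Mlh3 to Pms2 (right), each from the FPKM of a library, on axes from 0, by culture and tumor size in mm3. Points are libraries with the group mean ± SD. Colon 26 lies above CT-26 for Msh6 over Msh3 (9.95 against 4.25 in culture) and below it for Mlh3 over Pms2 (0.193 against 1.81 in culture), without overlap in culture or at any size.

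The handling of strand by the counting is not given in the sources used here, so reads in a stretch where exons of genes on opposite strands overlap cannot be assigned. This holds for Msh6 and Fbxo11, the latter of which differed by 0.14 in culture (adjusted p = 0.000548) and did not pass at any tumor size. Annotated exons of Pms1 and Pole overlap antisense genes (Gm28777 and Gm15792), and those of Pms2 overlap Rsph10b and Gm42421 on the same strand, so the values of these members are uncertain to the extent that such reads were shared.

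Among the MutL-type members, Mlh3 showed the widest difference of the 8 members between the models. The gene (ENSMUSG00000021245.15) lies on chr12:85234520-85270599, minus strand. In culture it lay at 46.6, 47.9 and 48.0 CPM in CT-26 and at 5.49, 5.70 and 6.30 CPM in Colon 26. The log2 fold change was −2.97 (SE 0.06, adjusted p = 1.76e-16), or 7.83-fold lower in Colon 26. At 100 mm3 the CT-26 tumors had 19.4, 20.7, 21.4 and 24.4 CPM and the Colon 26 tumors 4.08, 4.62, 5.20 and 5.90 CPM. The tumors of 400 mm3 had 22.0, 24.9, 26.6 and 28.4 CPM in CT-26 and 4.28, 4.46, 5.64 and 5.95 CPM in Colon 26, and those of 800 mm3 23.5, 24.5, 25.8 and 27.7 CPM and 4.24, 5.13, 5.14 and 5.97 CPM. No Colon 26 library of any kind exceeded 6.30 CPM, and no CT-26 library was under 19.4 CPM. The differences were −2.13 (SE 0.13, adjusted p = 4.97e-06), −2.33 (SE 0.14, adjusted p = 1.11e-05) and −2.31 (SE 0.11, adjusted p = 2.94e-07) at the 3 sizes, and −2.23 (SE 0.08, adjusted p = 3.24e-17) over all 24 tumors. Mlh3 was the only member that was DE in culture and at every size.

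The step from culture to tumor differed between the models for Mlh3. In CT-26 it fell by 1.14 on the log2 scale at 100 mm3 (SE 0.08, adjusted p = 8.9e-06), and all 4 tumors lay under all 3 cultures. In Colon 26 the value was −0.24 (SE 0.13, adjusted p = 0.141) and did not pass. The difference of the 2 steps was 0.85 (SE 0.15, adjusted p = 0.000495). Leukocyte, endothelial and fibroblast markers were higher in tumors than in cultures in both models, and the part of these cells in the Mlh3 values was not tested.

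Pms1 (ENSMUSG00000026098.13, chr1:53189187-53297018, minus strand) was lower in Colon 26 in all 4 comparisons. In culture it lay at 9.56, 10.5 and 10.9 CPM in CT-26 and at 6.84, 7.30 and 7.68 CPM in Colon 26 (log2 fold change −0.45, SE 0.08, adjusted p = 8.87e-05). Over the tumors it ranged from 8.04 to 10.6 CPM in CT-26 and from 4.23 to 6.63 CPM in Colon 26, so that the models stayed apart at every size. The differences were −0.73 (SE 0.13, adjusted p = 0.00189), −0.62 (SE 0.13, adjusted p = 0.00505) and −0.65 (SE 0.11, adjusted p = 0.000589). Its head-to-head neighbour Ormdl1, a regulator of sphingolipid synthesis whose start lies 77 bases away, was lower in Colon 26 as well, by −0.84 in culture (adjusted p = 5.32e-10) and by −0.29, −0.25 and −0.32 in tumors (adjusted p = 0.0142, 0.0146 and 0.00641). From culture to tumors of 100 mm3, Pms1 fell by 0.42 in Colon 26 (SE 0.13, adjusted p = 0.0168). In CT-26 the value was −0.19 (adjusted p = 0.151). Ormdl1 moved otherwise in this step by edgeR, with 0.15 in Colon 26 (adjusted p = 0.0612) and −0.45 in CT-26 (adjusted p = 0.00137).

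Pms2 (ENSMUSG00000079109.11, chr5:143909964-143933968, plus strand) was the member whose group means varied least over the 8 groups, from 21.2 to 27.9 CPM. The cultures had 21.2, 22.8 and 23.6 CPM in CT-26 and 27.5, 27.7 and 28.4 CPM in Colon 26, a log2 fold change of 0.36 (SE 0.05, adjusted p = 4.89e-06). The tumors ranged from 20.6 to 26.8 CPM in CT-26 and from 18.9 to 24.7 CPM in Colon 26. The difference was 0.03 at 100 mm3 (adjusted p = 0.802) and −0.13 at 400 mm3 (adjusted p = 0.234), neither of which passed, and −0.25 at 800 mm3 (SE 0.08, adjusted p = 0.0287), which did. Over all 24 tumors it was −0.09 (SE 0.05, adjusted p = 0.116). That value lies close to the threshold: it passed by DESeq2 (−0.11, adjusted p = 0.0666), in 4 of the other 6 alternative settings and in all 24 fits that left out a library (adjusted p from 0.0139 to 0.0909). In Colon 26, Pms2 fell by 0.25 from culture to tumors of 100 mm3 (SE 0.05, adjusted p = 0.00222). In CT-26 the value was 0.03 (adjusted p = 0.799).

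With Pms2 nearly level and Mlh3 not, the FPKM ratio of Mlh3 to Pms2 separated the models: it was 1.81 ± 0.21 in CT-26 cultures and 0.193 ± 0.014 in Colon 26 cultures (SD, n = 3). In CT-26 tumors it was 0.924 ± 0.138, 0.994 ± 0.103 and 0.975 ± 0.083 at the 3 sizes, and in Colon 26 tumors 0.206 ± 0.040, 0.208 ± 0.020 and 0.224 ± 0.022 (SD, n = 4). The Colon 26 values thus stayed in a narrow band from culture to the largest tumors, while the CT-26 tumors lay below the CT-26 cultures without overlap. The head-to-head neighbour of Pms2, the tRNA synthetase scaffold gene Aimp2 (117 bases between starts), did not pass in culture (0.05, adjusted p = 0.237) and was lower in Colon 26 tumors (−0.33, −0.35 and −0.40, adjusted p = 0.00721, 0.0133 and 0.000281).

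Exo1, the excision nuclease (ENSMUSG00000039748.11, chr1:175880581-175913489, plus strand), was higher in Colon 26 cultures. They had 20.5, 22.3 and 23.1 CPM, against 8.61, 9.10 and 9.14 CPM in CT-26 cultures. The log2 fold change was 1.35 (SE 0.07, adjusted p = 2.09e-11), or 2.54-fold. In tumors of 100 mm3 the order was turned, with 21.3, 23.4, 25.3 and 25.7 CPM in CT-26 and 15.7, 17.1, 17.8 and 19.4 CPM in Colon 26 (−0.46, SE 0.09, adjusted p = 0.00285). At 400 mm3 the models overlapped, 14.0 to 21.4 CPM in CT-26 and 14.2 to 19.9 CPM in Colon 26, and the difference was 0.01 (SE 0.15, adjusted p = 0.961). At 800 mm3 the CT-26 tumors had 16.4, 17.1, 21.6 and 24.2 CPM and the Colon 26 tumors 13.3, 14.8, 14.9 and 16.2 CPM, again without overlap (−0.42, SE 0.13, adjusted p = 0.0183).

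The turn came from opposite steps between culture and tumor. In CT-26, Exo1 rose by 1.42 at 100 mm3 (SE 0.09, adjusted p = 5.3e-06), and in Colon 26 it fell by 0.33 (SE 0.08, adjusted p = 0.00474). The difference of the steps, −1.80 (SE 0.12, adjusted p = 7.17e-08), was the largest of any tested member in size, apart from Mgmt, whose fitted value rests on a culture group with a single count. In this test of the steps 51.0% of all genes passed.

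Pole (ENSMUSG00000007080.14, chr5:110286306-110337474, plus strand) showed the same turn by counts. In culture CT-26 had 40.9, 42.6 and 44.8 CPM and Colon 26 63.6, 64.7 and 64.9 CPM (log2 fold change 0.64, SE 0.04, adjusted p = 1.29e-10). At 100 mm3 CT-26 tumors had 78.7, 83.2, 87.9 and 92.9 CPM and Colon 26 tumors 52.4, 52.6, 56.8 and 57.4 CPM. The larger CT-26 tumors lay at 96.2 to 107.0 CPM (400 mm3) and 97.2 to 105.1 CPM (800 mm3), and the larger Colon 26 tumors at 48.9 to 61.1 and 47.6 to 54.1 CPM. The models never overlapped, and the difference was −0.65 (SE 0.06, adjusted p = 5.68e-05), −0.82 (SE 0.08, adjusted p = 7.05e-05) and −1.02 (SE 0.06, adjusted p = 8.06e-07). At 800 mm3 Pole was therefore DE, at the edge of the minimum: in the fits that left out a library its value ran from −1.04 to −0.97, and 3 alternative settings also took it under 1 in size. The wider difference at larger size was not established, since the model by growth test from 100 to 800 mm3 passed for no member by edgeR (13 of 16238 genes passed, 0.0801%, of which 46.2% were higher, against 0.0% with library size only), with 2 members at an unadjusted p under 0.05 (Pms2 and Pole), as were 12.5% of all genes, and Pole called by DESeq2, as were 431 genes. From 100 to 400 mm3 the same test passed for no gene by edgeR (0.0% of 16077), with Exo1 alone of the members at an unadjusted p under 0.05, as were 7.8% of all genes, and no member called by DESeq2, which called 91 genes.

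From culture to tumors of 100 mm3, Pole counts rose by 1.01 in CT-26 (SE 0.08, adjusted p = 1.08e-05) and fell by 0.23 in Colon 26 (SE 0.04, adjusted p = 0.00101), and the difference of the steps was −1.29 (SE 0.09, adjusted p = 8.73e-08). The direction in Colon 26 depended on the unit. The mean level of Colon 26 tumors over that of Colon 26 cultures was 0.851, 0.888 and 0.779 at the 3 sizes in CPM but 1.19, 1.14 and 1.09 in FPKM. In CT-26 the ratio was above 1 in both units, 2.002, 2.36 and 2.36 in CPM and 3.21, 2.88 and 3.48 in FPKM.

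The units part because the deposited FPKM of Pole used a different length in cultures and in tumors. The length behind an FPKM value was recovered from the count, the library total and the FPKM, which by definition is the count divided by the total and the length. For Pole it was 6615 to 7163 bases in the 6 cultures (median 6721) and 3899 to 5878 bases in the 24 tumors (median 4740), without overlap and in both models. The longest over the shortest was 1.84. Of 8522 genes with at least 200 counts in every library, 2 (0.0235%) had a wider spread, the median gene had a ratio of 1.0, and the cultures and tumors were apart by more than 1% for 464 genes (5.44%). For the other members counted at that depth the ratio was 1.0 for Msh6, 1.03 for Msh3 and 1.24 for Pms2. The annotation used here (GENCODE M21) lists for Pole a coding transcript of 7163 bases with 49 exons (Pole-201), shorter coding transcripts of 1523 and 747 bases, and retained-intron transcripts of 4480, 2134, 1766 and 1723 bases. The length used for Pole was thus shorter in tumors than in cultures. Which transcripts lay behind it was not tested, and transcript-level values were not analysed here. The head-to-head neighbour of Pole, the peroxisomal membrane protein gene Pxmp2 (120 bases between starts), was counted at 10 to 59 counts in cultures and tumors and did not pass between the models in culture (−0.26, adjusted p = 0.457) or at any tumor size. Tests between models at the same tumor size used counts and do not rest on this length.

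**Figure D4:**
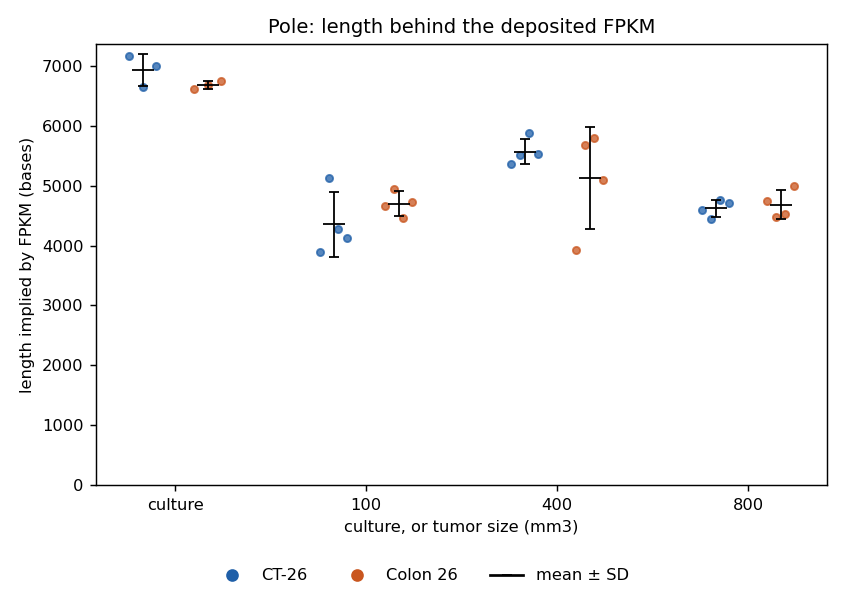
Transcript length in bases implied by the deposited FPKM of Pole in each library, on an axis from 0, by culture and tumor size in mm3. Points are libraries, blue for CT-26 and orange for Colon 26, with the group mean ± SD (n = 3 or 4). All cultures lie at 6615 bases or more and all tumors at 5878 or less.

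Levels of Exo1 and Pole stood beside those of 15 proliferation genes (such as Mcm5, a subunit of the replicative helicase, and Ccna2, cyclin A2). Their summed level was 1157 to 1222 CPM in CT-26 cultures, 2410 to 2559 CPM in Colon 26 cultures, 2739 to 3467 CPM in CT-26 tumors and 2280 to 2663 CPM in Colon 26 tumors. As for Pole by counts, the CT-26 cultures were lowest, the CT-26 tumors highest and the Colon 26 libraries between them. Within Colon 26 the patterns differed, since the Pole counts of cultures and tumors did not overlap while the sums of proliferation genes did. In culture 14 of the 15 were higher in Colon 26 and none lower (10 DE), against 42.2% higher, 40.4% lower and 22.9% DE of all genes tested, with Ccna2 at 2.18 (SE 0.04, adjusted p = 2.4e-17) and Mcm5 at 1.71 (SE 0.03, adjusted p = 1.24e-16). In tumors of 100, 400 and 800 mm3, 11, 9 and 12 were lower and 0, 1 and 0 higher, where 56.5%, 52.2% and 59.4% of all genes passed in either direction. All 15 differed in their step from culture to tumor in the same direction as Exo1 and Pole, 13 of them by at least 1 on the log2 scale, where 51.0% of all genes passed in either direction. The part of proliferation in the values of Exo1 and Pole was not tested.

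**Figure D5:**
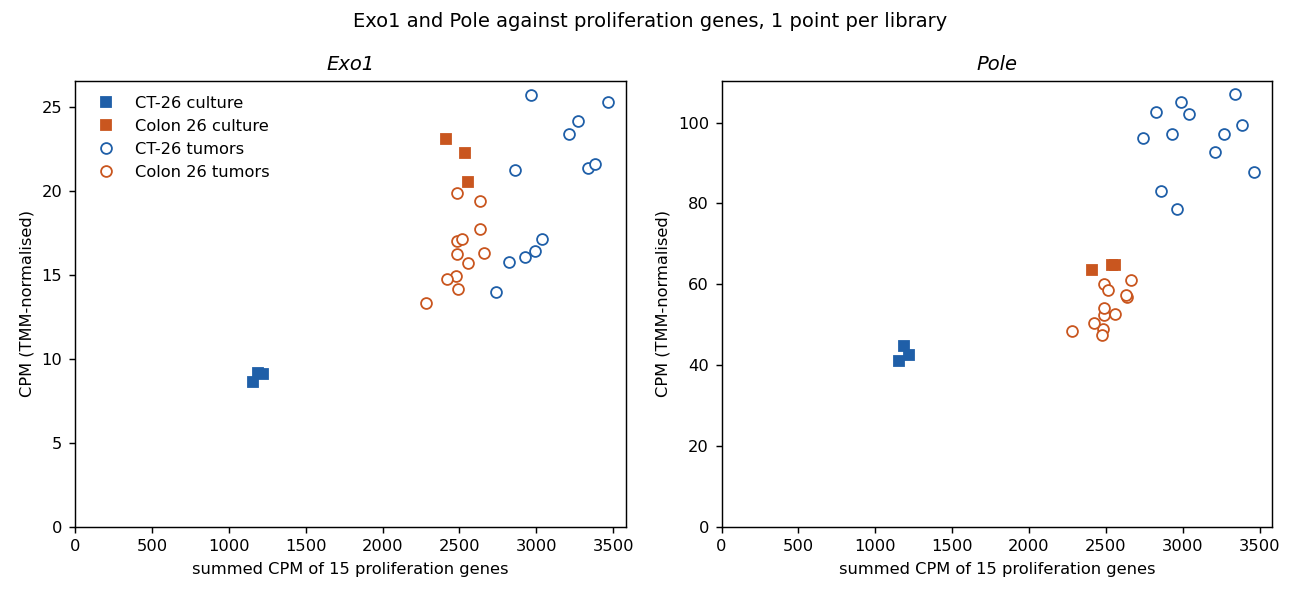
Level of Exo1 (left) and Pole (right) against the summed level of 15 proliferation genes, both in TMM-normalised CPM on axes from 0, 1 point per library. Filled squares are cultures and open circles tumors, blue for CT-26 and orange for Colon 26. The CT-26 cultures lie apart at a sum of 1157 to 1222 CPM with the lowest Exo1 and Pole, and Pole is highest in CT-26 tumors.

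Mgmt, the direct reversal enzyme (ENSMUSG00000054612.4, chr7:136894614-137130266, plus strand), was close to the limit of detection in culture. It had 0, 0 and 1 count in the CT-26 cultures and 0 in each of the 3 Colon 26 cultures, so it was not tested there. In tumors it had 16 to 24, 6 to 19 and 12 to 31 counts in CT-26 at the 3 sizes and 14 to 28, 8 to 26 and 18 to 25 counts in Colon 26. Over the group totals, CT-26 tumors stood 55.4-fold (9.67 to 2214), 38.1-fold (6.56 to 1531) and 47.7-fold (8.33 to 1908) above CT-26 cultures, with exact 95% counting intervals around a single culture count. Colon 26 tumors stood at least 30.1-, 22.7- and 28.4-fold above Colon 26 cultures, with 3 counts over the group taken as the limit that a count of 0 allows (0.0260 CPM). Such intervals and limits cover counting error only. Between the models Mgmt did not pass at any size, with log2 fold changes of −0.02 (SE 0.27, adjusted p = 0.964), 0.12 (SE 0.45, adjusted p = 0.852) and 0.12 (SE 0.30, adjusted p = 0.758), and the groups overlapped throughout. With so few counts, a difference larger than these SE could also have been missed.

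The level of Mgmt moved with marker lists of other cell types, some genes of which the cultures themselves expressed. The summed level of the 9 leukocyte markers was 60.8 to 67.6 CPM in CT-26 cultures, where Ncr1 was at 0, and 3.95 to 5.03 CPM in Colon 26 cultures, where Cd3e, Cd8a, Adgre1 and Ncr1 were at 0. Nearly all of the sum in CT-26 cultures was Cd68, a lysosomal protein abundant in macrophages (59.2 to 66.4 CPM), and Ptprc was at most 0.209 CPM in any culture. It was 242 to 1073 CPM in CT-26 tumors and 565 to 1006 CPM in Colon 26 tumors, with all 9 markers counted. Endothelial markers (4 genes) went from 0.120 to 0.594 CPM in cultures to 53.3 to 181 CPM in tumors, and fibroblast markers (7 genes) from 119 to 391 CPM to 1120 to 3441 CPM. In Colon 26 cultures the fibroblast sum was mostly Col1a1 (261 to 279 CPM), with Pdgfrb at 68.6 to 73.3 CPM and Pdgfra at 33.7 to 35.3 CPM. There Col3a1 (3.57 to 3.88 CPM) and Dcn (at most 0.122 CPM) were low, Lum had no count and Thy1 at most 1 count. In CT-26 cultures Dcn lay at 3.12 to 3.90 CPM and Col3a1 at 8.57 to 9.68 CPM. Dcn was DE and lower in Colon 26 in culture and at all 3 sizes (−5.26, −1.20, −2.45 and −2.09). Col1a1 was DE and higher (2.39, 1.10, 1.14 and 1.10). Across the 30 libraries Mgmt and Ptprc, the pan-leukocyte gene, correlated with r = 0.954, a description that rests largely on the gap between cultures and tumors. The part of these cells in the Mgmt counts was not tested.

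From culture to tumors of 100 mm3, 5 members were DE in CT-26 and 1 in Colon 26. In CT-26, 6 of 8 passed and 5 were DE (75.5% and 32.2% of all genes tested), with Msh6 at 1.01 (SE 0.08, adjusted p = 1.08e-05), Msh3 at 0.38 (SE 0.09, adjusted p = 0.00599) and Pole, Exo1, Mlh3 and Mgmt as given above. The DE calls of Msh6 and Pole lie at the minimum of 1, and 3 members were DE when the CT-26 tumor of replicate 2 or the culture of replicate 1 was left out. In Colon 26, 6 of 8 passed and 1, Mgmt, was DE (78.9% and 26.9% of all genes tested), and Msh6 rose by 0.45 (SE 0.05, adjusted p = 3.35e-05). The value of Msh3 there was 0.08 (adjusted p = 0.3). Mgmt entered these tests only through its tumor counts, since it had at most 1 count in any culture, and its DE calls restate that gap. With at least 10 counts in every library, which removes Mgmt, 0 members were DE in Colon 26. The test of the difference between the models passed for 6 of 8 members, Exo1, Pole, Msh6 (−0.60, SE 0.09, adjusted p = 0.000111), Mlh3, Msh3 (−0.34, SE 0.11, adjusted p = 0.0178) and Pms2 (−0.33, SE 0.10, adjusted p = 0.0127), against 51.0% of all genes. Of these only Mlh3 moved less far down in Colon 26, and the other 5 had the lower value there.

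The other genes of the pathway gave the following counts, to be read against the 82.6% of all genes that passed in culture (42.2% higher and 40.4% lower) and the 56.5%, 52.2% and 59.4% that passed at 100, 400 and 800 mm3. Of 21 replication and excision partners (clamp, clamp loader, RPA, ligase 1, polymerase delta and epsilon subunits, Fen1 and RNase H2), 17 were higher and 2 lower in Colon 26 cultures, with a median log2 fold change of 0.56 against 0.01 over all genes. The DE genes included Rnaseh2c (1.33, SE 0.08, adjusted p = 1.13e-10), a subunit of the nuclease that removes ribonucleotides from DNA, Rfc4 (1.06, SE 0.05, adjusted p = 4.83e-12), a clamp loader subunit, and Pold2 (1.15, SE 0.04, adjusted p = 1.39e-13), a subunit of polymerase delta. In tumors the count turned, with 12, 11 and 15 lower and 3, 3 and 1 higher at the 3 sizes. Rfc5, also of the clamp loader, was lowest at 800 mm3 (−1.16, SE 0.07, adjusted p = 9.37e-07), and Pole2, the second subunit of polymerase epsilon, was also lower (−0.51, SE 0.10, adjusted p = 0.00209).

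Of 12 nucleotide pool genes, 10 were higher and 1 lower in Colon 26 cultures (median 0.84), led by Tk1, thymidine kinase (1.81, SE 0.05, adjusted p = 8.27e-15), and Rrm2, a ribonucleotide reductase subunit (1.73, SE 0.03, adjusted p = 1.32e-16). At 100, 400 and 800 mm3, 2, 4 and 2 were higher and 5, 5 and 5 lower, and 1 of those higher at 400 mm3 was DE. At 800 mm3 Rrm2 was at −0.96 (SE 0.06, adjusted p = 1.37e-06) and Dctpp1, a dCTP hydrolase, at 0.63 (SE 0.12, adjusted p = 0.00172). Both Rrm2 and Tk1 (−0.54 at 800 mm3, adjusted p = 0.00104) thus changed order between culture and tumors of 800 mm3, as Exo1 and Pole did.

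Base excision and direct reversal genes were mixed. Of 17 tested in culture, 10 were higher and 3 lower in Colon 26, where 82.6% of all genes passed. Among them were the thymine glycosylase Tdg (1.23, SE 0.06, adjusted p = 8.75e-12), Lig3 (1.16, SE 0.03, adjusted p = 2.74e-14) and the uracil glycosylase Smug1 (−1.13, SE 0.06, adjusted p = 3.57e-11). At 100, 400 and 800 mm3, 7, 7 and 4 were higher and 7, 2 and 5 lower, and Lig3 (0.70, adjusted p = 6.18e-05) and Smug1 (−0.71, adjusted p = 0.000172) kept their direction at 800 mm3. Of 7 translesion synthesis genes, 3 were higher and 3 lower in culture, and 3 lower and 2 higher at 800 mm3. Among these, Rev1, a scaffold of translesion polymerases, was lower in both (−0.78, SE 0.04, adjusted p = 2.98e-11, and −0.81, SE 0.08, adjusted p = 2.84e-05). Of the meiotic MutS homologs Msh4 and Msh5, Msh4 had too few counts to be tested and Msh5 passed in culture (0.56, SE 0.25, adjusted p = 0.0541) and not in tumors. From culture to tumors of 100 mm3 Msh5 rose in both models, by 2.90 in CT-26 (SE 0.24, adjusted p = 1.64e-05) and by 2.58 in Colon 26 (SE 0.15, adjusted p = 5.04e-07), with a summed level of both homologs of 0.876 to 1.30 CPM in cultures and 2.26 to 7.49 CPM in tumors.

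The genes whose levels were most like those of a member were ranked by Pearson's r of log2 CPM over the 30 libraries, which share the gap between cultures and tumors and between the models. Mlh3 was most like Rnf44 (r = 0.995) and B230220B15Rik (r = 0.988), Mgmt most like Selenop (r = 0.976) and Slc9a9 (r = 0.975), and Pole most like Parpbp (r = 0.97) and Racgap1 (r = 0.967). Exo1 was most like Aurka (r = 0.942), a mitotic kinase, and Parp1 (r = 0.935), a sensor of DNA breaks. Msh3 was most like 4930523C07Rik (r = 0.948), Pms1 like Thoc2 and Zfp808 (r = 0.945 each), Msh6 like Rnf26 (r = 0.903) and Pms2 like Cenpq (r = 0.801). Over the pairs of members r ran from −0.696 for Msh6 and Mlh3 to 0.899 for Mlh3 and Pms1. It was 0.785 for Msh3 and Pole, 0.738 for Msh3 and Mlh3 and 0.571 for Exo1 and Pole.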

How the data were processed

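Poly-A RNA of 30 libraries was sequenced by the authors, who counted reads on Ensembl release 78 genes with Array Studio and deposited estimated counts for 53431 genes, 23.0% of whose non-zero values are not whole. The authors also deposited FPKM, which divides each count by the library total and a transcript length. The aligner, genome build and strand handling are not given in the sources used here. Per the submitters' processing notes DESeq2 1.24.0 was used. No library column was left unused.

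Estimated counts were rounded, although the tests had been planned for raw counts, and groups were compared in R 4.3.3 with the quasi-likelihood F-test of edgeR (version 4.0.16) after TMM scaling and filterByExpr, with Benjamini-Hochberg adjustment and only the libraries of a comparison in each fit. SE were derived from each gene's F statistic. DESeq2 (version 1.42.0), other scaling factors and filters, all libraries in one fit, a stricter threshold and leaving out each library served as alternatives, and the procedure was tested on simulated data. FPKM was used for levels between members, ratios and recovered lengths. Other work used Python 3.11.15, pandas 2.3.3, numpy 2.4.6 and scipy 1.17.1. Groups came from the labels of model, tissue and tumor size. Library totals ran from 21384730 to 39722586 counts, so a gene near the Mgmt level rests on few counts. Gene coordinates are from GENCODE M21 (GRCm38), which held 52207 identifiers (97.7%), and upstream sequences from RefSeq (GRCm38.p6).

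All 8 members are named. From the other lists the rule took genes called DE with 1 sign throughout, in culture and at all 3 sizes, up to 4 with the largest change among those that passed, head-to-head neighbours within 1000 bases and the genes most like each member. Pole2, Tk1 at 800 mm3, Fbxo11, Epcam, Cdh1 and Ptprc were chosen after their values were seen. The members and lists were chosen with earlier results of these data known. Some genes are not reported here.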

Additional observations from a re-analysis of the deposited data

Results flagged for a closer look

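The step from culture to tumors of 100 mm3 differed between the models for 6 of the 8 members by the interaction test of edgeR (adjusted p at most 0.1), where 51.0% of all genes tested passed. The log2 difference of Colon 26 minus CT-26 was −1.7984 for Exo1 (adjusted p = 7.17e-08), −1.2884 for Pole (adjusted p = 8.73e-08), −0.6047 for Msh6 (adjusted p = 0.000111), 0.8517 for Mlh3 (adjusted p = 0.000495), −0.3427 for Msh3 (adjusted p = 0.0178) and −0.327 for Pms2 (adjusted p = 0.0127). Every one of these kept its sign and passed in all 14 fits that left out a library. Exo1 and Pole passed in opposite directions in the models by counts, up in CT-26 and down in Colon 26, and Pole did not go down in Colon 26 in FPKM. The cultures of the models also differ in depth and in their series of library numbers, which cannot be told apart from the model. Of 48 sets of 4 tumors (8 members in 6 groups) checked for a library far from the others, none passed Dixon's 95% limit, which about 1 in 20 would pass by chance.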

How the results depend on the processing

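Of 443 recomputed values of single members under the 7 settings other than leaving out a library, 434 kept their direction and their side of the threshold, and so did 611 of 658 values with a library left out. No value that changed sign passed the threshold in either fit: Mgmt at 100 mm3 was 0.0328 with library size only and ran from −0.1709 to 0.1452 with a library left out, Mgmt at 400 mm3 from −0.1466 to 0.36 and at 800 mm3 from −0.0832 to 0.3088, Exo1 at 400 mm3 from −0.0777 to 0.1414, Pms2 at 100 mm3 from −0.0204 to 0.0637 and Pms2 in CT-26 from culture to 100 mm3 from −0.0314 to 0.0596. The number of DE members at 800 mm3, 2, was 1 with library size only, 1 with no filter and 1 with at least 10 counts in every library, and 1 to 2 with a library left out, 1 without CT-26 replicate 3 or Colon 26 replicate 1 or 2 (Pole, near a log2 fold change of −1). The number of DE members in CT-26 from culture to 100 mm3, 5, was 3 with no filter and 3 to 5 with a library left out, 3 without CT-26 tumor replicate 2 or culture replicate 1. In Colon 26 it was 0 in place of 1 with at least 10 counts in every library, which removes Mgmt. For growth, 0 members passed in CT-26 from 100 to 400 mm3, against 3 by DESeq2, 1 with at least 10 counts in every library, 3 with all 30 libraries in one fit and 0 to 2 with a library left out. From 100 to 800 mm3 in CT-26 it was 0, against 1 by DESeq2 and 2 with all 30 libraries. From 100 to 400 mm3 in Colon 26 it was 0, against 1 by DESeq2, 1 with no filter, 1 with at least 10 counts, 1 with all 30 libraries and 0 to 1 with a library left out. The model by growth test from 100 to 800 mm3 gave 0, against 1 by DESeq2, 1 with all 30 libraries and 0 to 1 with a library left out. Over all genes, DESeq2 called 1977, 177, 507 and 1601 for growth in CT-26 to 400 and 800 mm3 and in Colon 26 to 400 and 800 mm3, where edgeR called 0, 0, 3 and 1028, and 91 and 431 in the model by growth tests, where edgeR called 0 and 13. Msh6 at 400 mm3 did not pass with no filter (adjusted p just above the threshold) or at an adjusted p of 0.05, and Pms2 at 800 mm3 did not pass with library size only (adjusted p = 0.101). The cause was not tested for these changes. Scaling moved the median of all genes by less than 0.1. No paired analysis was possible because the labels give the libraries no replicate numbers, and the numbers used here only follow the order of the samples. Depth limits Mgmt most, with at most 31 counts in any library.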
